A study of Danio rerio with 20 samples.

Results

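Zebrafish larvae kept in a light-dark cycle were bathed in dexamethasone (DEX), a synthetic glucocorticoid, and the 4 daytime RNA-Seq libraries of these larvae were set against their 4 night-time libraries. The 8 libraries, of 20 in the series, were chosen by their labels: DEX in the medium, and sampling at ZT3 or ZT9 (day) or at ZT15 or ZT21 (night), where Zeitgeber time (ZT) counts hours from lights on. The day libraries came from rx3 strong mutants and wild-type siblings (WT) at ZT3 and ZT9, and the night libraries from the same genotypes at ZT15 and ZT21, with 1 library per genotype and time point. Each library pooled 30 whole larvae at 5 days post fertilization (dpf), and all larvae of the 8 libraries were kept in 25 µM DEX, dissolved in DMSO, from the first day after fertilization. The rx3 strong larvae were homozygous for the t25327 allele of rx3. They form no eyes and have few pituitary corticotropes, so that their own cortisol is low. The labels give a mixed TU, AB and WIK background for all groups. The larvae came from pooled clutches. Nothing in the sources used here says that different libraries came from separate cultures, so the p-values below measure only the spread between these libraries. The comparison of 4 with 4 libraries treats ZT3 and ZT9 as replicates of day, and ZT15 and ZT21 as replicates of night. Since DEX stayed at one concentration, the comparison asks which transcripts differ between the day and the night samples while the added glucocorticoid is constant. Per the study's methods, sampling started at 5 dpf and went on through the time points, each taken once per genotype. Age and hours in DEX therefore differed between time points too, and cannot be told apart from light and dark. The cortisol of the larvae themselves was not measured in these files, and WT larvae make their own. The comparison under DEX was set beside the same comparison in 8 libraries without DEX.

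In the vertebrate clock, Clock and Bmal proteins activate genes through E-box elements, and the Period and Cryptochrome proteins they induce repress them in turn. Rev-erb receptors repress, and Ror receptors activate, genes with Ror elements, among them the bmal genes. PAR bZIP factors such as Tef and Dbp activate D-box genes, and Nfil3 proteins repress them. Zebrafish tissues are themselves sensitive to light, which induces per2, a cry1 gene and DNA repair genes directly, largely through D-boxes. Glucocorticoids act through their receptor on genes of glucose and lipid metabolism, and in mammals they also set the phase of peripheral clocks. Gene names below are those of the reference tables, which give many zebrafish genes the capital letters of their human counterparts, and where copies share a name the Ensembl identifier is given.

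The 8 libraries held between 12586879 (WT, ZT3) and 49738048 (rx3 strong, ZT9) reads counted in genes, and 23411 of 32512 genes passed the filter on low counts. Levels are given in CPM, which are counts divided by the scaled size of their library and so can be compared across libraries for a gene, but not between genes. The genotypes separated along the first principal component of the 2000 most variable genes (64.7% of variance), and the eye markers went with the labels: 33 tested photoreceptor genes summed to 38, 27, 29.87 and 29.1 CPM in the eyeless larvae at ZT3, ZT9, ZT15 and ZT21, and to 8693, 4512, 4066 and 3929 CPM in WT. Both ZT3 libraries stood apart. On the second component (17.4%) they lay at 32.0 (rx3 strong) and 39.6 (WT), against -31.7 to 12.3 for the other 6. Their 10 most abundant genes took 12.4% and 11.9% of the reads, against 6.76% to 9.01% elsewhere, and 31 skeletal muscle genes summed to 123354, 75638, 59016 and 73607 CPM in rx3 strong and 127265, 68563, 58110 and 45581 CPM in WT at ZT3, ZT9, ZT15 and ZT21. In whole larvae, more cells of a type and more RNA per cell cannot be told apart. Medians and counts of some lists, and several genes highest at ZT3, are therefore given also without these libraries. Among the other lists, some medians of the log2 CPM difference moved and some did not. The period genes had 1.72 with these libraries and 0.58 without, and the clock activators 0.18 with and 0.75 without. The cryptochromes had 0.77 with and 1.41 without, and the mitosis genes 0.76 with and 0.84 without.

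Few single genes passed the direct test of day against night. With genotype as a factor, edgeR's quasi-likelihood test called 4 of 23411 genes at an adjusted p under 0.05 (0.0171%), 2 higher by day (0.00854%) and 2 higher by night (0.00854%). At an unadjusted p under 0.05 there were 2156, and DESeq2 called 493 (389 higher by day, 104 by night). Of the 4, nr1d4b (ENSDARG00000059370), a Rev-erb family receptor gene, differed most. It had 3.11 and 2.73 CPM in rx3 strong and 3.21 and 5.07 CPM in WT by day, against 40.7 and 92.7 CPM in rx3 strong and 57.1 and 121 CPM in WT by night, the earlier time point first in each pair. No night value overlapped a day value, and the difference was log2 -4.46 (SE 0.36, adjusted p = 0.0151). MSRB3 (ENSDARG00000045658), which encodes a methionine sulfoxide reductase that repairs oxidised proteins, had 123 and 102 CPM in rx3 strong and 99.1 and 73 CPM in WT by day, against 46.2 and 45.9 CPM in rx3 strong and 30.9 and 29.83 CPM in WT by night. Its log2 1.39 (SE 0.15, adjusted p = 0.0479) lay in the other direction, again with no overlap. The gene si:dkey-222n6.2 (ENSDARG00000034836) had 51.5 and 39.95 CPM in rx3 strong and 46.5 and 41 CPM in WT by day, against 16.4 and 17.6 CPM in rx3 strong and 14.3 and 14 CPM in WT by night, or log2 1.53 (SE 0.15, adjusted p = 0.0305). The fourth, ENSDARG00000036463, has no symbol in the tables used and was higher by night. Without the ZT3 libraries 2 genes were called in all, and leaving out single libraries gave 0 to 9, with nr1d4b called in 5 of those 8 fits, MSRB3 and si:dkey-222n6.2 in 1 each. The log2 differences were steadier than the calls: over the 8 fits nr1d4b ran between -4.66 and -4.16, and MSRB3 between 1.28 and 1.47.

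Levels also differed inside the periods, tested in a fit where each time point had its own level. Between ZT3 and ZT9 the test called 1128 genes higher at ZT3 (4.82%) and 1859 higher at ZT9 (7.94%), and between ZT15 and ZT21 it called 103 higher at ZT15 (0.440%) and 187 higher at ZT21 (0.799%). Any difference among the 4 time points was called for 2936 genes (12.5%). Of these 2936, the highest mean fell at ZT3 for 1019, at ZT9 for 1099, at ZT15 for 449 and at ZT21 for 369. Over all 23411 tested genes it fell at these time points for 7518, 5806, 3981 and 6106. In the same fit the mean of ZT3 and ZT9 was set against the mean of ZT15 and ZT21 on the log scale. Its error comes from how far the gap between the genotypes changes over the 4 time points, since a constant gap is taken up by the genotype term. How far the time points of a period part does not enter it. This time-point contrast called 645 genes higher by day (2.76%) and 205 higher by night (0.876%), and 786 of the 850 also differed among the 4 time points. Only a part of them kept the periods fully apart: in 322 of the 850 all day values lay above all night values, and in 72 below. Overlap is judged over the libraries of both genotypes, unless a genotype is named. Over all tested genes, whatever their p, 792 had all day values above all night values (3.38%) and 371 the reverse (1.58%), and the median difference was -0.02. Without the ZT3 libraries, both ZT9 values lay above the 4 night values for 2139 genes (9.14%) and below them for 2141 (9.15%). Adjusted p-values below are those of the time-point contrast unless stated. Leaving out single libraries gave 205 to 785 calls for that contrast. The counts without WT at ZT3 (222), at ZT9 (287) or at ZT15 (205), and without rx3 strong at ZT9 (284), were the low ones. Between ZT3 and ZT9, 18 genes were called without WT at ZT3, 940 without WT at ZT9, 1193 without rx3 strong at ZT3 and 56 without rx3 strong at ZT9. For any time point the fits gave 522 to 2941, with 522 without WT at ZT3, 1557 without WT at ZT9, 1540 without rx3 strong at ZT3 and 1328 without rx3 strong at ZT9. Between ZT15 and ZT21 they gave 109 (without rx3 strong at ZT15) to 377.

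**Figure D1:**
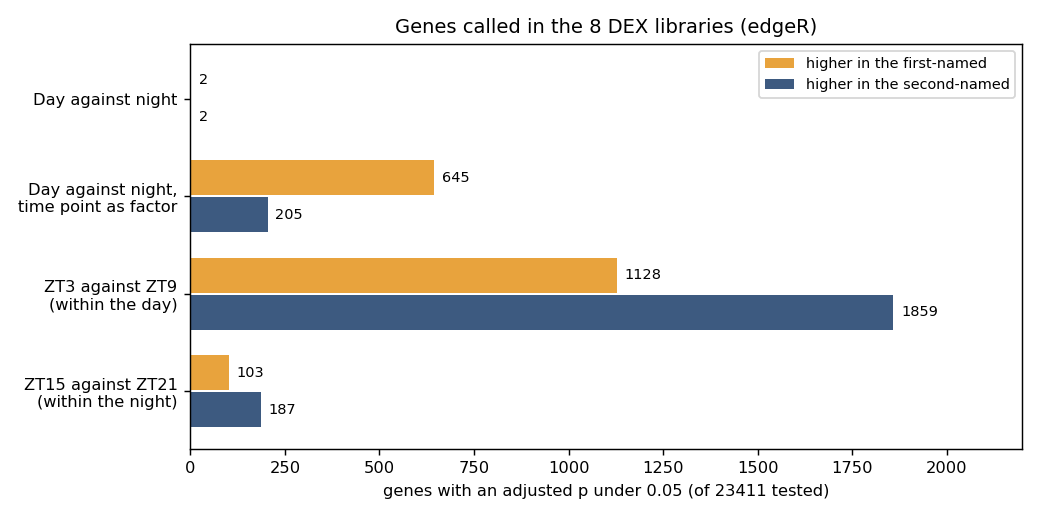
Numbers of genes called at an adjusted p under 0.05 in each comparison under DEX (bars from 0, in genes), split by direction where the test has one. The direct test of day against night holds 4 genes, the time-point contrast 645 and 205, and ZT3 against ZT9 holds the most, 1128 and 1859.

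PER2 and both CRY1 copies, of the gene families that light induces in zebrafish, were higher by day under constant DEX. PER2, the light-responsive Period gene, had 321 and 171 CPM in rx3 strong and 327 and 148 CPM in WT by day, against 59.55 and 28.7 CPM in rx3 strong and 32.3 and 31.4 CPM in WT by night, a difference of log2 2.62 (SE 0.18, adjusted p = 0.000225). The lowest day value was above the highest night value, and in each genotype ZT3 was the peak. Without the ZT3 libraries its log2 difference was 2.09 in the day-night fit. The CRY1 copy ENSDARG00000045768, a cryptochrome, had 166 and 123 CPM in rx3 strong and 170.4 and 125 CPM in WT by day, against 36.9 and 61.9 CPM in rx3 strong and 17.6 and 68.3 CPM in WT by night (log2 1.79, SE 0.20, adjusted p = 0.00237), with no overlap. The other copy, ENSDARG00000011583, had 53.1, 17.4, 1.93 and 20.5 CPM in rx3 strong and 53.5, 19.92, 2.19 and 19.3 CPM in WT at ZT3, ZT9, ZT15 and ZT21, with ZT15 lowest in both genotypes and ZT21 above ZT9 in rx3 strong (log2 2.30, SE 0.13, adjusted p = 9.79e-05). lonrf1, a RING finger gene counted in the repair list below, stood by day at 218 and 196 CPM in rx3 strong and 148 and 179 CPM in WT, and by night at 84.7 and 38.7 CPM in rx3 strong and 37.1 and 36.8 CPM in WT, log2 1.97 (SE 0.19, adjusted p = 0.00123).

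Of the genes in the repair list that passed, nearly all were higher by day. Of 20 genes in the list of photolyases and light-induced repair, all were tested. The time-point contrast called 9 higher by day, lonrf1 among them, and 1 by night (2.76% and 0.876% of all genes). In 8 the day values were all above the night values and in 1 all below (3.38% and 1.58% of all genes). The list's median difference was 0.58, against -0.02 over all genes. Without ZT3 the same count was 8 and 1, while the shares of all genes rose to 9.14% and 9.15%. XPC, which recognises distorted DNA at the start of nucleotide excision repair, had 102 and 58 CPM in rx3 strong and 101 and 50.17 CPM in WT by day, against 27.3 and 17.7 CPM in rx3 strong and 16.7 and 18.8 CPM in WT by night (log2 1.89, SE 0.15, adjusted p = 0.000519). DDB2, which finds ultraviolet lesions, had 99, 40.24, 15.6 and 40.7 CPM in rx3 strong and 104, 44.1, 14.3 and 31.1 CPM in WT at ZT3, ZT9, ZT15 and ZT21 (log2 1.50, SE 0.13, adjusted p = 0.000719). ZT15 was the low point in both genotypes, and ZT21 exceeded ZT9 in rx3 strong. cry5, the zebrafish 6-4 photolyase, stood by day at 141 and 96.3 CPM in rx3 strong and 115 and 67.4 CPM in WT, and by night at 65.2 and 32.6 CPM in rx3 strong and 23 and 24.2 CPM in WT (log2 1.59, SE 0.19, adjusted p = 0.00419). For cry-dash, a photolyase-like cryptochrome gene, the difference was log2 1.26 (SE 0.18, adjusted p = 0.00766). NEIL1, a base excision glycosylase, had 44.4 and 45.1 CPM in rx3 strong and 48.1 and 37.7 CPM in WT by day, against 22.7 and 20.35 CPM in rx3 strong and 18.1 and 17.4 CPM in WT by night (log2 1.16, SE 0.13, adjusted p = 0.0023). ERCC6 (log2 0.82, SE 0.12, adjusted p = 0.00766), which couples repair to transcription, and POLH (log2 0.82, SE 0.17, adjusted p = 0.0315), a polymerase that copies past lesions, were also higher by day without overlap. GADD45B ENSDARG00000027744 passed with values that overlapped across genotypes, but not within either genotype (log2 0.75, SE 0.17, adjusted p = 0.047). The member higher by night was rad23ab, a partner of Xpc, with 28.7 and 31.8 CPM in rx3 strong and 27.7 and 37.1 CPM in WT by day, against 45.9 and 38.9 CPM in rx3 strong and 53.9 and 40.6 CPM in WT by night (log2 -0.51, SE 0.12, adjusted p = 0.0465). XPA (log2 -0.00, SE 0.18, adjusted p = 0.994), which verifies lesions, did not pass.

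**Figure D2:**
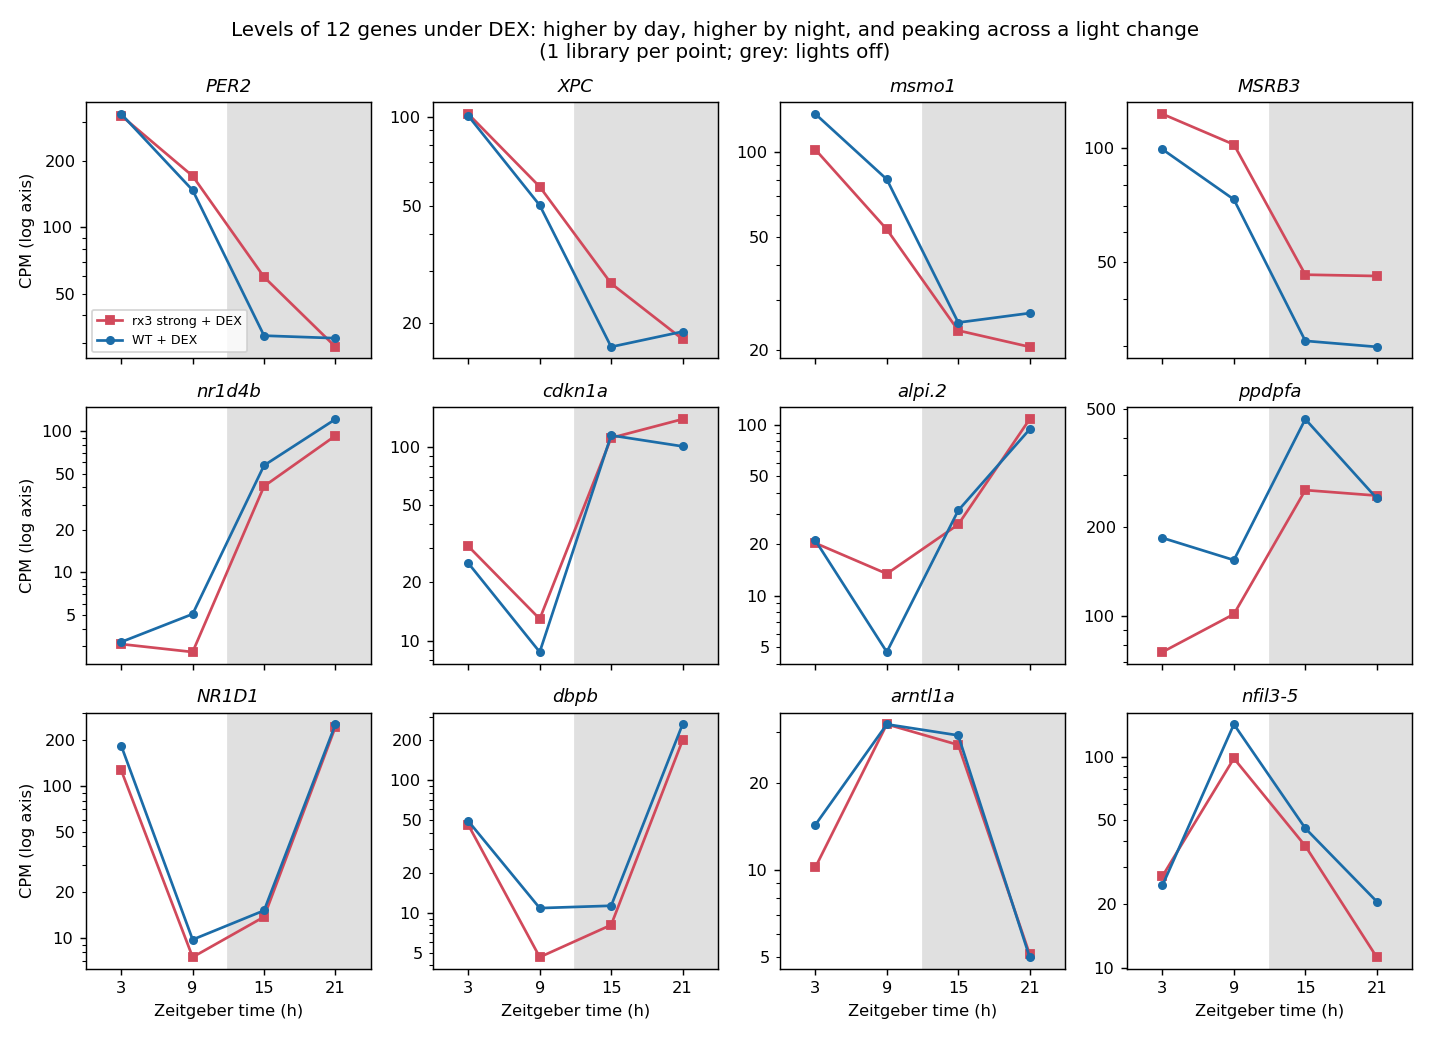
Level in CPM (log axis) against Zeitgeber time in hours for 12 genes, with 1 library per point, rx3 strong (squares) and WT (circles) under DEX, and lights off shaded grey. PER2, XPC, msmo1 and MSRB3 have all day points above their night points, nr1d4b, cdkn1a, alpi.2 and ppdpfa have them below, and NR1D1, dbpb, arntl1a and nfil3-5 have a high and a low point in each period.

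The Rev-erb and Ror receptors of the second clock loop, and the repressor genes listed with them, split into several phases. Of 18 genes listed for the Rev-erb, Ror and Dec loop, 17 were tested. The list and its counts include the nfil3 and ciart genes given in the next paragraph. Of the 17 tested, 15 differed among the time points (12.5% of all genes). The time-point contrast called 8 higher by day and 5 by night (2.76% and 0.876% of all genes), and 2 and 3 kept the periods apart (3.38% and 1.58%). Without the ZT3 libraries the median on the log2(CPM + 0.5) scale was -0.14, against 0.55 with them. Then 7 and 4 kept the periods apart, while the shares of all genes rose to 9.14% and 9.15%. All 3 that lay wholly higher by night were Rev-erb genes. nr1d4b is given above, and nr1d4a had 0.847 and 0.414 CPM in rx3 strong and 0.779 and 0.845 CPM in WT by day, against 1.88 and 2.53 CPM in rx3 strong and 5.9 and 10.10 CPM in WT by night (log2 -2.52, SE 0.32, adjusted p = 0.00471). nr1d2a had 137 and 107 CPM in rx3 strong and 103 and 112 CPM in WT by day, against 225 and 198 CPM in rx3 strong and 249 and 188 CPM in WT by night (log2 -0.90, SE 0.13, adjusted p = 0.00851). NR1D1 (Rev-erb alpha) instead spanned the dark-to-light change, with 127, 7.45, 13.7 and 245 CPM in rx3 strong and 184, 9.72, 15.1 and 255 CPM in WT at ZT3, ZT9, ZT15 and ZT21. Its ZT3 values exceeded its ZT9 values (log2 4.17, SE 0.20, adjusted p = 7.01e-05) and ZT21 exceeded ZT15 (ZT15 minus ZT21, log2 -4.12, SE 0.20, adjusted p = 3.79e-05), so that day and night values overlapped, and the time-point contrast was log2 -0.73 (SE 0.13, adjusted p = 0.0171). NR1D2 (Rev-erb beta) had 183, 59.95, 24 and 123 CPM in rx3 strong and 212, 72.3, 24.8 and 140 CPM in WT at the same times and was higher by day on average (log2 1.01, SE 0.11, adjusted p = 0.00266).

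Among the Ror receptors, rorab had 89.4 and 75.8 CPM in rx3 strong and 93.1 and 97.6 CPM in WT by day, against 17.3 and 36.1 CPM in rx3 strong and 25.6 and 48 CPM in WT by night (log2 1.58, SE 0.13, adjusted p = 0.000519), with no overlap. rorca and rorcb were highest at ZT9 in both genotypes. rorca had 13.2, 32.4, 10.32 and 4.61 CPM in rx3 strong and 16.2, 51.2, 15 and 3.36 CPM in WT at ZT3, ZT9, ZT15 and ZT21 (log2 1.79, SE 0.19, adjusted p = 0.00172), and rorcb 2.1, 13.1, 3.92 and 0.998 CPM in rx3 strong and 1.36, 24.8, 4.15 and 1.11 CPM in WT (log2 1.51, SE 0.25, adjusted p = 0.0134). RORA and RORB did not pass (adjusted p = 0.655 and 0.846). The D-box repressor nfil3-6 was higher by day without overlap, 114 and 104 CPM in rx3 strong and 86.9 and 101 CPM in WT by day, against 34.4 and 23.6 CPM in rx3 strong and 26.4 and 39.67 CPM in WT by night (log2 1.71, SE 0.19, adjusted p = 0.00237). nfil3-5 had its maximum at ZT9, with 27.2, 98.2, 37.8 and 11.2 CPM in rx3 strong and 24.6, 142, 45.8 and 20.6 CPM in WT (log2 1.14, SE 0.16, adjusted p = 0.00756). bhlhe40 (Dec1), an E-box repressor, was lowest at ZT15, with 163, 165, 21.7 and 66.3 CPM in rx3 strong and 202, 166, 16 and 164 CPM in WT (log2 1.91, SE 0.24, adjusted p = 0.0046). Its relative BHLHE41 (Dec2) was highest at ZT21, with 72.9, 28.6, 24.6 and 143 CPM in rx3 strong and 67.6, 23.7, 26.9 and 206 CPM in WT (log2 -0.64, SE 0.15, adjusted p = 0.047). The Chrono genes ciarta and ciartb, repressors of Clock and Bmal, were high at ZT3 and ZT21: ciarta had 103, 10.6, 5.36 and 90.04 CPM in rx3 strong and 96, 15.3, 6.34 and 105 CPM in WT, and ciartb, 69.69, 12.2, 12.6 and 75.3 CPM in rx3 strong and 71.4, 13.8, 14.5 and 96.4 CPM in WT. ciarta's contrast was log2 0.59 (SE 0.13, adjusted p = 0.043) and ciartb's log2 -0.17 (SE 0.12, adjusted p = 0.492).

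The Period genes other than PER2 likewise peaked around lights on. PER1 ENSDARG00000012499 had 113, 13.7, 2.01 and 51.3 CPM in rx3 strong and 115, 20.9, 3.75 and 97.8 CPM in WT at ZT3, ZT9, ZT15 and ZT21, and ZT15 was the low point in both genotypes (log2 1.65, SE 0.17, adjusted p = 0.00149). PER1 ENSDARG00000056885 was higher at ZT21 than at ZT3, with 35.9, 2.75, 3.27 and 74.2 CPM in rx3 strong and 41.3, 5.1, 3.19 and 109 CPM in WT (log2 -0.50, SE 0.16, adjusted p = 0.134), and did not pass. PER3 had 77.8, 14.9, 2.57 and 30.41 CPM in rx3 strong and 67.5, 26.3, 1.68 and 55.6 CPM in WT (log2 2.02, SE 0.24, adjusted p = 0.00364). In all 3 genes ZT3 exceeded ZT9, and ZT21 exceeded ZT15, at an adjusted p under 0.05. Among the PAR bZIP activators, all 5 were tested, 1 was higher by day and 2 by night (2.76% and 0.876% of all genes). tefa, which carries light responses to D-box genes in zebrafish, had 754, 311, 125 and 262 CPM in rx3 strong and 557, 231, 64.6 and 222 CPM in WT (log2 1.49, SE 0.15, adjusted p = 0.00144). dbpa and dbpb peaked at ZT21. dbpb had 45.8, 4.62, 8.07 and 199 CPM in rx3 strong and 48.9, 10.8, 11.3 and 262 CPM in WT (log2 -1.32, SE 0.17, adjusted p = 0.00514), and dbpa differed by log2 -1.0 (SE 0.14, adjusted p = 0.00701). HLF (log2 -0.63, SE 0.17, adjusted p = 0.0805) and hlfa (log2 0.23, SE 0.15, adjusted p = 0.458) did not pass, although HLF was lower at ZT3 than at ZT9 (adjusted p = 0.0093).

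The clock activators were centred on dusk, and day and night values overlapped for each of the 6 tested. In 5 of them some time points differed (12.5% of all genes), with ZT3 lower than ZT9 (7.94%) and ZT15 higher than ZT21 (0.440%). arntl1a, a bmal1 gene, had 10.21, 31.9, 27.1 and 5.11 CPM in rx3 strong and 14.3, 31.9, 29.2 and 4.99 CPM in WT at ZT3, ZT9, ZT15 and ZT21 (log2 0.72, SE 0.14, adjusted p = 0.0254), and BMAL1 (ENSDARG00000035732) 10.13, 20.5, 21.7 and 3.34 CPM in rx3 strong and 9.26, 28.2, 26.6 and 5.96 CPM in WT (log2 0.56, SE 0.17, adjusted p = 0.103). CLOCK was highest at ZT15, with 19.1, 29.64, 58.3 and 16.6 CPM in rx3 strong and 17.3, 36.2, 70.7 and 19.88 CPM in WT (log2 -0.48, SE 0.13, adjusted p = 0.0757). npas2, a Clock paralog, was highest at ZT9, with 9.16, 13.8, 7.64 and 3.19 CPM in rx3 strong and 7.31, 16.5, 9.16 and 3.56 CPM in WT (log2 1.08, SE 0.16, adjusted p = 0.00931). bmal2 followed CLOCK, 5, 8.28, 15.3 and 2.3 CPM in rx3 strong and 3.7, 10.17, 17.4 and 3.77 CPM in WT, and clock3 stayed between 31.4 and 53.9 CPM in all 8 libraries. The remaining cryptochromes shared this timing. cry3b had 53.9, 184, 146 and 25.1 CPM in rx3 strong and 52.6, 189.9, 127 and 24.8 CPM in WT (log2 0.77, SE 0.11, adjusted p = 0.00817), cry4 30.31, 63.5, 58.7 and 13.3 CPM in rx3 strong and 37.5, 58.4, 39.4 and 16.3 CPM in WT (log2 0.75, SE 0.16, adjusted p = 0.0369) and cry3a 421, 643, 769 and 168 CPM in rx3 strong and 356, 620.4, 766 and 158 CPM in WT (log2 0.48, SE 0.13, adjusted p = 0.0705). In all 3, ZT9 exceeded ZT3, and ZT15 exceeded ZT21, at an adjusted p under 0.05.

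Most replication genes were higher by day. All 29 listed S phase genes were tested, and in 24 every day value lay above every night value, against 3.38% of all genes. The time-point contrast called 22 higher by day and 0 by night (2.76% and 0.876% of all genes), and the median difference was 0.76 (0.76 in rx3 strong and 0.85 in WT). The direct test at 5 residual degrees of freedom called none of the 29. Without the ZT3 libraries, 24 of 29 had both ZT9 values above all night values, against 9.14% of all genes, and the median on the log2(CPM + 0.5) scale was 0.57, against 0.76 with them. The ribonucleotide reductase gene rrm2, which makes the building blocks of DNA, is present as 2 copies. ENSDARG00000078069 had 11.8 and 15.3 CPM in rx3 strong and 16.4 and 6.91 CPM in WT by day, against 6.54 and 3.26 CPM in rx3 strong and 3.77 and 2.69 CPM in WT by night (log2 1.68, SE 0.25, adjusted p = 0.0087), and ENSDARG00000020711 had 8.47 and 13.1 CPM in rx3 strong and 7.01 and 8.24 CPM in WT by day, against 4.77 and 2.57 CPM in rx3 strong and 3.64 and 2.07 CPM in WT by night (log2 1.53, SE 0.17, adjusted p = 0.00237). Neither copy overlapped between day and night. tyms, thymidylate synthase, stood by day at 10.7 and 13.8 CPM in rx3 strong and 9.35 and 9.18 CPM in WT, and by night at 5.07 and 4.57 CPM in rx3 strong and 3.6 and 4.2 CPM in WT (log2 1.29, SE 0.16, adjusted p = 0.0046). gins2, a part of the replicative helicase, differed by log2 1.33 (SE 0.23, adjusted p = 0.016), and dhfr, which regenerates folate for thymidylate, by log2 1.06 (SE 0.14, adjusted p = 0.00506). Outside the list, si:dkey-104n9.1 (log2 2.91, SE 0.17, adjusted p = 9.79e-05) and wdr76 (log2 2.11, SE 0.22, adjusted p = 0.00168) were among the largest day-high differences.

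Mitosis genes had their low point at the end of the night. Of 28 tested, 8 were higher by day in the time-point contrast (2.76% of all genes) and 17 differed among the time points (12.5%). Over all genes, 3.38% kept day above night and 1.58% night above day, but the periods overlapped for all 28 mitosis genes. Their median difference from the gene's own mean was 0.11, 0.72, 0.59 and -1.25 (log2) at ZT3, ZT9, ZT15 and ZT21 in rx3 strong, and 0.52, 0.17, -0.01 and -0.81 in WT. The low time point was ZT21 in both genotypes, and without the ZT21 libraries the list's median on the log2(CPM + 0.5) scale was 0.07, against 0.76 with them. AURKB, a kinase of the chromosomal passenger complex, had 13.4, 17.7, 13.4 and 2.96 CPM in rx3 strong and 18, 11.2, 8.51 and 4.61 CPM in WT (log2 1.22, SE 0.24, adjusted p = 0.0265). TOP2A, which untangles chromosomes, had 34.9, 45.6, 35.4 and 11.6 CPM in rx3 strong and 52.1, 31.8, 26.1 and 14 CPM in WT (log2 1.04, SE 0.19, adjusted p = 0.0203). TPX2, a spindle assembly factor, was called higher at ZT15 than at ZT21 (log2 1.61, SE 0.31, adjusted p = 0.0436), as were 3 others of the 28 (0.440% of all genes). Among 13 tested genes that hold the cell cycle back, cdkn1a (p21), an inhibitor of cyclin-dependent kinases, was higher by night, with 30.7 and 13 CPM in rx3 strong and 25.1 and 8.75 CPM in WT by day, against 111 and 139 CPM in rx3 strong and 114 and 100.5 CPM in WT by night. The difference was log2 -2.75 (SE 0.14, adjusted p = 5.66e-05) with no overlap, and log2 -2.60 (SE 0.37, adjusted p = 0.0607) in the direct test. Within the day it was higher at ZT3 than at ZT9 (log2 1.37, SE 0.20, adjusted p = 0.0067), while the 2 night points lay close. E2F8, a repressor of E2F targets, was higher by day (log2 1.08, SE 0.24, adjusted p = 0.0401). BTG2, an antiproliferative gene, passed with values that overlapped across genotypes (log2 0.58, SE 0.13, adjusted p = 0.0466). Within each genotype its day values exceeded its night values, narrowly in rx3 strong (65.94 CPM at ZT3 against 65.59 CPM at ZT15).

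**Figure D3:**
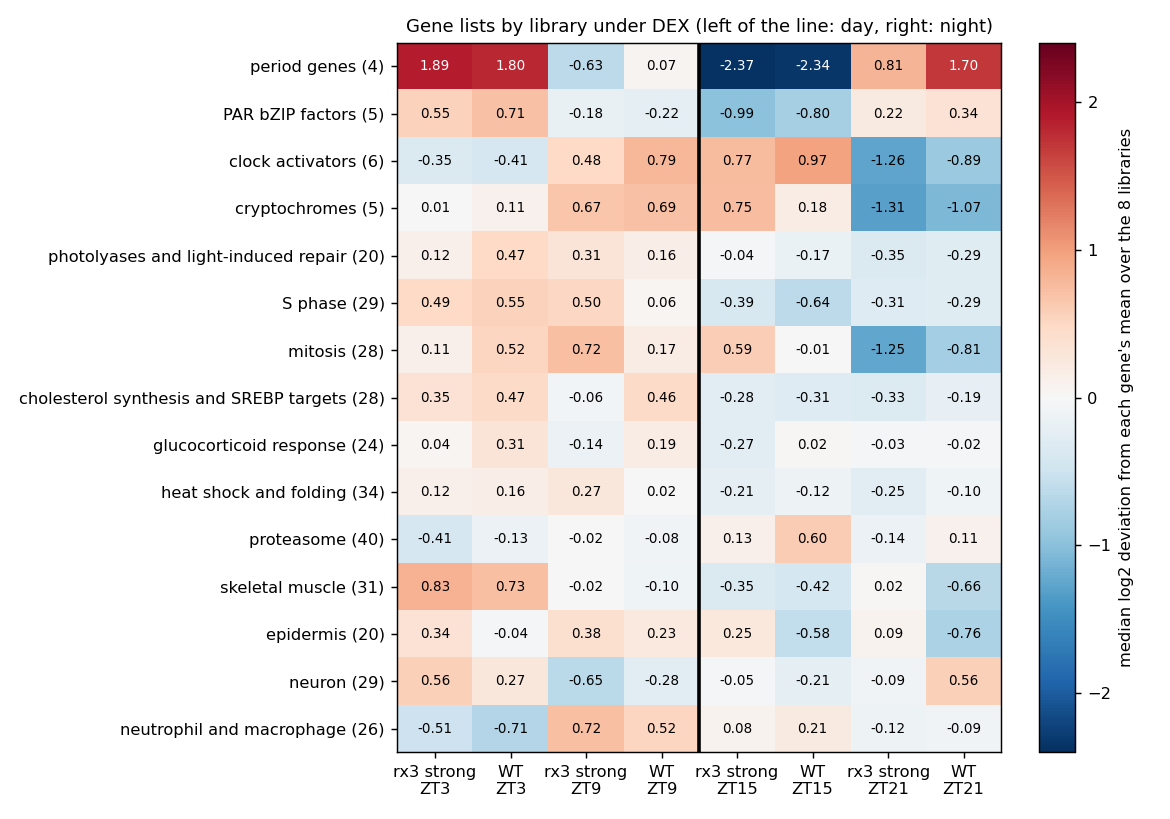
Median log2 deviation of each list (tested members in brackets) from each gene's mean over the 8 libraries, by library, with day left of the line and night right of it. S phase genes were above their mean in all 4 day libraries and below it in all 4 night libraries, mitosis genes were at -1.25 and -0.81 at ZT21 (rx3 strong, WT), and skeletal muscle genes at 0.83 and 0.73 at ZT3.

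In the list of cholesterol synthesis genes and other SREBP targets, those that passed were higher by day, except for the receptor gene ldlra. Of 29 listed genes of this pathway and other SREBP targets, 28 were tested. In 14 all day values lay above all night values and in 0 below (3.38% and 1.58% of all genes). The time-point contrast called 13 higher by day and 1 by night (2.76% and 0.876% of all genes). The median was 0.65 (0.55 in rx3 strong, 0.79 in WT). Without the ZT3 libraries 15 of 28 had both ZT9 values above all night values (9.14% of all genes), and the median on the log2(CPM + 0.5) scale was 0.61. sqlea, squalene epoxidase, had 22.1 and 8.18 CPM in rx3 strong and 28.4 and 16.8 CPM in WT by day, against 3.73 and 2.73 CPM in rx3 strong and 4.49 and 5.31 CPM in WT by night (log2 2.12, SE 0.18, adjusted p = 0.000697). msmo1, a methylsterol monooxygenase, had 102 and 53.4 CPM in rx3 strong and 137 and 80.26 CPM in WT by day, against 23.4 and 20.46 CPM in rx3 strong and 24.9 and 26.9 CPM in WT by night (log2 1.88, SE 0.13, adjusted p = 0.000225). cyp51, which removes a methyl group from lanosterol, stood by day at 88.8 and 37.5 CPM in rx3 strong and 149 and 79 CPM in WT, and by night at 24.1 and 16.7 CPM in rx3 strong and 22.6 and 23.2 CPM in WT (log2 1.88, SE 0.18, adjusted p = 0.00139). In these 3 genes the night values were within a narrow range and the day values fell off between ZT3 and ZT9 (adjusted p = 0.0227, 0.0175 and 0.0268 for ZT3 against ZT9), and ZT9 alone still exceeded every night value. lss, lanosterol synthase, gave log2 1.52 (SE 0.18, adjusted p = 0.00303). hmgcra, a copy of the rate-limiting HMG-CoA reductase, had 99.2, 39.60, 18.3 and 38.5 CPM in rx3 strong and 165, 88.7, 37.7 and 71.5 CPM in WT at ZT3, ZT9, ZT15 and ZT21 (log2 1.23, SE 0.12, adjusted p = 0.00144). Here ZT21 exceeded ZT15 (ZT15 minus ZT21, log2 -1.0, SE 0.17, adjusted p = 0.0301). The periods overlapped across genotypes, but within each genotype every day value exceeded every night value. fdps (log2 0.78, SE 0.13, adjusted p = 0.0128), mvda (log2 0.66, SE 0.15, adjusted p = 0.047) and hmgcs1 (log2 0.89, SE 0.13, adjusted p = 0.00759), enzymes upstream of squalene, were also higher by day. The only member called higher by night was ldlra, a receptor that takes up LDL particles, with 37, 51.1, 66.3 and 70.5 CPM in rx3 strong and 51.3, 96, 118 and 105 CPM in WT at ZT3, ZT9, ZT15 and ZT21 (log2 -0.66, SE 0.12, adjusted p = 0.0235). It was named after its values were seen. The study's own steroid biosynthesis list, assembled from pathway annotation and sharing members with the list above, gave 11 of 20 without overlap by day, 8 called higher by day and 1 by night, and a median of 0.62.

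**Figure D4:**
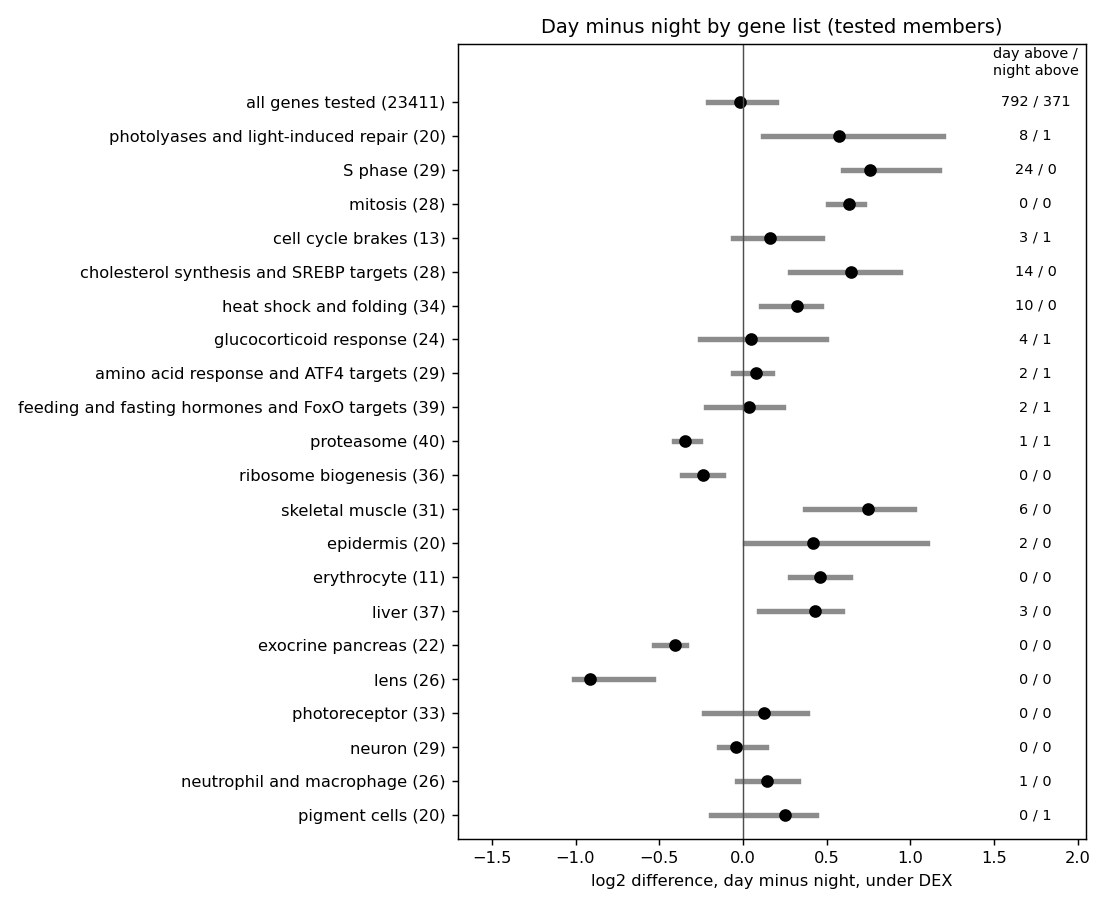
Log2 difference, day minus night under DEX, by gene list: points are medians over tested members (number in brackets) and bars run over the middle quartiles. The figures at the right count members whose day values all lay above, or all below, their night values: 24 and 0 for S phase, 14 and 0 for cholesterol synthesis, and 0 and 0 for mitosis. Over all genes the shares were 3.38% and 1.58%. Lens and photoreceptor medians rest on WT, since the eyeless larvae had few reads of these genes.

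The glucocorticoid list included members higher by day and a member higher by night. It holds genes known to respond to glucocorticoids, and also genes of the receptor and of hormone synthesis, control and breakdown, such as NR3C1, star, CRH and hsd11b2. Of 25 listed, 24 were tested. Of these, 5 were higher by day, against 2.76% of all genes, and 1 by night, against 0.876%. Among the time points 10 differed, against 12.5% of all genes, and the median was 0.05. The PER1 copies described above belong to this list as well. FKBP5, a chaperone of the receptor and among its strongest targets, had 868 and 964 CPM in rx3 strong and 771 and 809 CPM in WT by day, against 787 and 967 CPM in rx3 strong and 811 and 759 CPM in WT by night (log2 0.04, SE 0.14, adjusted p = 0.92). The receptor gene NR3C1 also showed no difference that passed (log2 -0.02, SE 0.11, adjusted p = 0.936), and its values ran from 32.6 to 49.3 CPM. tsc22d3 (Gilz), an anti-inflammatory target, had 384 and 425 CPM in rx3 strong and 427 and 353 CPM in WT by day, against 246 and 294 CPM in rx3 strong and 209.6 and 209.5 CPM in WT by night (log2 0.74, SE 0.14, adjusted p = 0.0241), and sgk1, a kinase of ion transport, had 194 and 232 CPM in rx3 strong and 250 and 332 CPM in WT by day, against 146 and 109 CPM in rx3 strong and 169 and 165 CPM in WT by night (log2 0.76, SE 0.12, adjusted p = 0.0129). pck1, the gluconeogenic phosphoenolpyruvate carboxykinase, stood by day at 599.6 and 541 CPM in rx3 strong and 817 and 632 CPM in WT, and by night at 410 and 379.9 CPM in rx3 strong and 366 and 288 CPM in WT (log2 0.84, SE 0.16, adjusted p = 0.0266). In these 3, and in UCP2 (log2 0.79, SE 0.15, adjusted p = 0.0248), a mitochondrial carrier, no day value overlapped a night value. The member higher by night was hsd11b2, which inactivates cortisol, with 59.4 and 87.6 CPM in rx3 strong and 54.4 and 78.9 CPM in WT by day, against 123 and 135 CPM in rx3 strong and 133 and 93.3 CPM in WT by night (log2 -0.81, SE 0.13, adjusted p = 0.0134). KLF9 (log2 -0.54, SE 0.13, adjusted p = 0.0594), tat (log2 0.49, SE 0.19, adjusted p = 0.205), CEBPB (log2 0.46, SE 0.23, adjusted p = 0.328) and POMC (log2 -0.48, SE 0.35, adjusted p = 0.509), the precursor of the hormone that drives cortisol release, did not pass. DDIT4, an mTORC1 inhibitor that glucocorticoids and amino acid lack both raise, is counted in the amino acid response list and was higher by night, with 154 and 122 CPM in rx3 strong and 193 and 162 CPM in WT by day, against 256 and 285 CPM in rx3 strong and 268 and 254 CPM in WT by night (log2 -0.77, SE 0.14, adjusted p = 0.0181). Of the 29 tested genes in that list, 2 were higher by day and 1 by night, against 2.76% and 0.876% of all genes. These counts are too small to set the list apart.

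The study grouped metabolic genes into pathways from public annotation, and 631 of 643 such genes were tested here. In 59 all day values were above all night values and in 10 below, against 3.38% and 1.58% of all genes. The time-point contrast called 57 higher by day and 9 by night (2.76% and 0.876% of all genes), 138 differed among the time points (12.5% of all genes), and the median was 0.13. Purine metabolism had 13 of 108 called higher by day and 1 by night, glycolysis and gluconeogenesis 10 and 0 of 76, and pyrimidine metabolism 8 and 0 of 77. Without the ZT3 libraries, day lay wholly above night in 14, 12 and 17 genes of these lists, in this order (9.14% of all genes). It lay wholly below in 6, 5 and 5 (9.15%). Their medians of the log2 CPM difference were then 0.05, 0.15 and 0.05, against 0.07, 0.23 and 0.12 with these libraries. The pyrimidine and folate lists hold S phase genes such as tyms, dhfr and rrm2. pkmb, a pyruvate kinase, had 461, 259, 168 and 239 CPM in rx3 strong and 303, 187, 99.2 and 82.8 CPM in WT at ZT3, ZT9, ZT15 and ZT21 (log2 1.08, SE 0.18, adjusted p = 0.0136), and pfkma, a phosphofructokinase of muscle, 352, 210.1, 165 and 218 CPM in rx3 strong and 258, 129, 87.3 and 77.6 CPM in WT (log2 0.83, SE 0.17, adjusted p = 0.0315). ZT3 was highest for both genes in both genotypes, and without the ZT3 libraries the direct fit gave 0.71 for pkmb and 0.40 for pfkma, and the part of muscle RNA in these values was not tested. Genes with steadier day values included idh1, a cytosolic isocitrate dehydrogenase, with 280.5 and 278 CPM in rx3 strong and 269.7 and 258 CPM in WT by day, against 144 and 179 CPM in rx3 strong and 153 and 134 CPM in WT by night (log2 0.83, SE 0.13, adjusted p = 0.0105). phgdh, which opens serine synthesis, gave log2 0.89 (SE 0.14, adjusted p = 0.0117), and bbox1, of carnitine synthesis, log2 1.07 (SE 0.14, adjusted p = 0.00566). Neither gene overlapped between the periods. tdh, threonine dehydrogenase, had 763, 451, 216 and 514 CPM in rx3 strong and 816, 543, 226 and 444 CPM in WT (log2 0.94, SE 0.14, adjusted p = 0.00756), with ZT15 the lowest point in both genotypes. CTH (ENSDARG00000032206), named for cystathionine gamma-lyase, stood by day at 11 and 7.6 CPM in rx3 strong and 9.06 and 8.94 CPM in WT, and by night at 1.18 and 3.61 CPM in rx3 strong and 2.43 and 4.79 CPM in WT (log2 1.76, SE 0.22, adjusted p = 0.0046).

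The next genes were named for the size of their differences. apoa4b.2, an apolipoprotein of the gut, had 552 and 423 CPM in rx3 strong and 1028 and 494 CPM in WT by day, against 99.3 and 191 CPM in rx3 strong and 149.6 and 244 CPM in WT by night (log2 1.86, SE 0.15, adjusted p = 0.000519). alpi.2, an intestinal alkaline phosphatase, was higher by night, with 20.30 and 13.4 CPM in rx3 strong and 21 and 4.68 CPM in WT by day, against 26.1 and 108 CPM in rx3 strong and 31.5 and 94 CPM in WT by night (log2 -2.02, SE 0.25, adjusted p = 0.0046), and higher at ZT21 than at ZT15 (ZT15 minus ZT21, log2 -1.78, SE 0.35, adjusted p = 0.0461). abcb11a, of the bile salt export pump family, had 6.94 and 4.7 CPM in rx3 strong and 7.99 and 8.24 CPM in WT by day, against 9.49 and 22.6 CPM in rx3 strong and 26.7 and 26.3 CPM in WT by night (log2 -1.55, SE 0.22, adjusted p = 0.00706), where the rx3 strong value at ZT15 was the lowest by night. PLS1 (log2 -1.27, SE 0.24, adjusted p = 0.0222), an actin bundler of microvilli, SLC3A1 (log2 -1.30, SE 0.27, adjusted p = 0.0344), a subunit of an amino acid transporter, and ugt5c3 (log2 -1.15, SE 0.20, adjusted p = 0.0165), a glucuronosyltransferase, likewise had their lowest night value in rx3 strong at ZT15. ppdpfa, a pancreatic differentiation factor gene, had 75.9 and 102 CPM in rx3 strong and 184 and 155 CPM in WT by day, against 267 and 256 CPM in rx3 strong and 463 and 250.3 CPM in WT by night (log2 -1.30, SE 0.19, adjusted p = 0.00856). alpk2 (log2 -1.09, SE 0.14, adjusted p = 0.00485), a kinase gene, and obsl1b (log2 -1.17, SE 0.13, adjusted p = 0.00299), of the obscurin family, were higher by night without overlap.

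Of the chaperone genes 3, and of the proteasome genes 1, passed the time-point contrast. All 34 heat shock and folding genes were tested. In 10 all day values were above all night values (3.38% of all genes), the 3 that passed were higher by day (2.76% of all genes), and the median was 0.32. SERPINH1 (ENSDARG00000019949), a chaperone of collagen, had 214 and 78.9 CPM in rx3 strong and 125 and 71.9 CPM in WT by day, against 29.4 and 56.8 CPM in rx3 strong and 28.9 and 37 CPM in WT by night (log2 1.60, SE 0.15, adjusted p = 0.00123). In the direct fit without the ZT3 libraries it was at log2 1.00. FKBP4, a co-chaperone of steroid receptors, had 106 and 99.4 CPM in rx3 strong and 86.2 and 71.3 CPM in WT by day, against 52.2 and 49.3 CPM in rx3 strong and 38.7 and 46.5 CPM in WT by night (log2 0.95, SE 0.12, adjusted p = 0.0046). Of 40 tested proteasome genes the mean peaked at ZT15 in 36, as it did in 3981 of all 23411 genes. At ZT15 their median log2 deviation from the gene's own mean was 0.60 in WT and 0.13 in rx3 strong. The list's median day minus night difference was -0.35 with DEX and 0.17 without, and 1 passed, higher by night (0.876% of all genes). It was psmd11b, with 53.8, 82.6, 113 and 78.1 CPM in rx3 strong and 49.68, 86.1, 163 and 101 CPM in WT (log2 -0.73, SE 0.14, adjusted p = 0.0232). Of 36 ribosome biogenesis genes, 29 peaked at ZT21, against 6106 of all 23411 genes. Their median deviation at ZT21 and ZT3 was 0.50 and 0.45 in WT, and 0.14 and -0.37 in rx3 strong. Their median day minus night difference was -0.24 with DEX and 0.10 without, and the time-point contrast called 0 (2 differed among the 4 time points, against 12.5% of all genes).

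Markers of several cell types differed between ZT3 and ZT9. Of 31 skeletal muscle genes, 14 were higher by day in the time-point contrast (2.76% of all genes), and 6 kept the periods apart, day above night (3.38%). Of the 31, 12 were higher at ZT3 than at ZT9 (4.82% of all genes) and 0 lower (7.94%), and 29 peaked at ZT3, as did 7518 of all 23411 genes. Without ZT3 the median on the log2(CPM + 0.5) scale was 0.29, against 0.71 with it. ACTA1 (ENSDARG00000055618), a muscle actin, had 1160 and 563 CPM in rx3 strong and 1703 and 699 CPM in WT by day, against 327 and 285 CPM in rx3 strong and 265 and 270 CPM in WT by night (log2 1.72, SE 0.17, adjusted p = 0.00144), and pvalb1, the calcium buffer of fast muscle, 21433, 10988, 7481 and 9232 CPM in rx3 strong and 19909, 8783, 5811 and 4133 CPM in WT at ZT3, ZT9, ZT15 and ZT21 (log2 1.15, SE 0.21, adjusted p = 0.0219). The direct fit without the ZT3 libraries gave 1.14 for this ACTA1 copy and 0.62 for pvalb1. In the time-point contrast 4 of 20 epidermal genes were higher by day, krt92 among them (log2 1.07, SE 0.14, adjusted p = 0.00474), and 2 of 11 erythrocyte genes, against 2.76% of all genes. Of the epidermal genes 7 were lower at ZT3 than at ZT9 (7.94% of all genes) and 2 higher (4.82%), and 10 peaked at ZT9. Of the erythrocyte genes 0 were lower at ZT3 than at ZT9 and 3 higher. Of 26 neutrophil and macrophage genes 14 were lower at ZT3 than at ZT9 (7.94% of all genes), and 25 peaked at ZT9, as did 5806 of all 23411 genes. With those 2 libraries left out, 12 of the 26 had both ZT9 values above all night values (9.14% of all genes), against 1 with them, and the median on that scale was 0.60, against -0.03 with them. Conversely 13 of 29 neuron genes were higher at ZT3 than at ZT9 (4.82% of all genes). With the same libraries left out, 11 of these 29 had all night values above both ZT9 values (9.15% of all genes), against 0 with them, and the median was -0.46, against -0.09 with them. On the same scale the exocrine pancreas list had a median of -0.03 without the ZT3 libraries and -0.38 with them. Of 22 exocrine pancreas genes 6 were lower at ZT3 than at ZT9 (7.94% of all genes). In the time-point contrast 1 passed, higher by night (0.876% of all genes), cel.1, a lipase (log2 -0.93, SE 0.21, adjusted p = 0.0415). Of 37 liver genes 6 were higher by day and 1 by night (2.76% and 0.876% of all genes). Transferrin, tfa, was higher by day (log2 0.91, SE 0.18, adjusted p = 0.0259). The gene cyp7a1a, the first enzyme of bile acid synthesis, was higher by night, at 5.69, 1.84, 7.7 and 26.4 CPM in rx3 strong and 16.3, 4.83, 12.7 and 22.7 CPM in WT (log2 -1.54, SE 0.27, adjusted p = 0.0165). The part of these markers in the other results was not tested.

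Eye genes passed the filter on low counts through WT, since the eyeless larvae had few reads of them, so a test over 4 and 4 libraries rests on WT and only their values are given. PDE6H, a phosphodiesterase subunit of cones, had 0.242 and 0.166 CPM in rx3 strong and 5.16 and 3.59 CPM in WT by day, against 0.509 and 0.73 CPM in rx3 strong and 45 and 79.77 CPM in WT by night. ARR3, the cone arrestin, had 6.9 and 1.86 CPM in rx3 strong and 2285 and 409 CPM in WT by day, against 0.804 and 1.04 CPM in rx3 strong and 78 and 246 CPM in WT by night. In WT the lowest day value exceeded the highest night value for ARR3, and the reverse held for PDE6H. The eyeless larvae had too few reads to judge this order. The lens crystallin gene crybgx had 0.0807 and 0.0414 CPM in rx3 strong and 22.7 and 27.5 CPM in WT by day, against 0.188 and 0.269 CPM in rx3 strong and 62 and 59.14 CPM in WT by night. Of 15 tested genes in a melatonin and pineal list, 1 was called higher by day and 3 by night (2.76% and 0.876% of all genes). In 5 of the 15 the difference was above 0. aanat2, an enzyme of melatonin synthesis, had 1.17, 1.72, 2.76 and 2.76 CPM in rx3 strong and 2.73, 6.61, 17.5 and 6.22 CPM in WT (log2 -1.16, SE 0.27, adjusted p = 0.047). Its values were low in rx3 strong, at most 2.76 CPM, and in WT the value at ZT21 lay below that at ZT9. tph1a, which opens serotonin synthesis, had 2.7 and 3.79 CPM in rx3 strong and 3.6 and 4.32 CPM in WT by day, against 5.5 and 6.99 CPM in rx3 strong and 9.98 and 7.91 CPM in WT by night (log2 -1.07, SE 0.19, adjusted p = 0.0174), without overlap.

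With edgeR, no gene was called for a day minus night difference that differed between the genotypes. The test of whether day minus night differed between rx3 strong and WT called 0 of 23411 genes (0.00%), with 147 at an unadjusted p under 0.05, and DESeq2 called 1. Neither genotype alone gave a call, with 512 genes in rx3 strong and 1032 in WT at an unadjusted p under 0.05. These 0 calls do not show equal responses: with 2 libraries a period and genotype, the standard error of the difference was 0.68 for nr1d4b, 0.69 for PER2 and 0.74 for cdkn1a on the log2 scale, beside differences of -0.12, -0.42 and 0.16. Over 22150 genes tested in both, the day minus night differences of rx3 strong and WT correlated with Pearson's r = 0.49. Genes are not independent replicates, and the libraries of a time point share age and kit.

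The same contrast in the 8 libraries of untreated rx3 strong and WT larvae was set beside these values. The labels call these larvae untreated, and the study's methods name DMSO alone as the control. Per the labels, the DEX libraries were made with another mRNA kit than the untreated ones, so DEX and kit cannot be told apart. Without DEX the direct test called 283 of 22444 genes higher by day (1.26%) and 82 higher by night (0.365%), and 914 (4.07%) and 623 (2.78%) kept the periods apart in one or the other direction. Of 21976 genes tested in both sets, the time-point contrast called 842 with DEX and 1684 without, and 442 were called in both, 437 with the same sign. That is 52.5% of the calls with DEX and 26.2% of those without. Between ZT3 and ZT9, 2987 genes were called with DEX, against 105 higher at ZT3 (0.468%) and 46 higher at ZT9 (0.205%) without, and across 21976 genes the differences correlated with r = 0.11. Between ZT15 and ZT21, 290 were called with DEX, against 747 higher at ZT15 (3.33%) and 1163 higher at ZT21 (5.18%) without, with r = 0.46 across genes, which are not independent replicates. The log2 day minus night difference of PER2 was 2.62 with DEX and 3.77 without, of nr1d4b -4.35 with DEX and -4.25 without, of cdkn1a -2.75 with DEX and -3.27 without and of XPC 1.89 with DEX and 1.68 without. S phase genes had a median of 0.76 with DEX and 0.97 without, and 24 kept day above night in each set. Heat shock genes had a median of 0.32 with DEX and 0.50 without. Other lists had values further apart. The photolyase and repair list had a median of 0.58 with DEX and 0.12 without, and 8 and 7 of 20 kept day above night. Its members went both ways in the time-point contrast: cry5 had 1.59 with DEX and 2.79 without, and GADD45B ENSDARG00000013576 0.40 with DEX and -0.56 without. Of the 20, 0 were called in the fit of both sets given below, with time point as a factor. Cholesterol genes had a median of 0.65 with DEX and 0.16 without, and 14 and 0 kept day above night. Skeletal muscle genes had medians of 0.75 and 0.00, and mitosis genes of 0.64 and 0.07.

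Whether the day-night difference itself differed between the DEX and the untreated libraries was tested with both sets in one fit. With period as a factor 0 of 23546 genes passed (0.00%), with 1243 at an unadjusted p under 0.05 and 0 by DESeq2. With time point as a factor, a test added after the data were seen, 55 passed (0.234%), 44 with a larger day minus night difference under DEX and 11 with a smaller one. Among the 44 were 4 of 28 cholesterol genes and 3 of 31 muscle genes. cyp51 had 17.4 and 17.2 CPM in rx3 strong and 56.7 and 37.3 CPM in WT by day, against 12.5 and 15.7 CPM in rx3 strong and 38.9 and 51.9 CPM in WT by night in untreated larvae, where the periods overlapped. Its difference was 1.88 with DEX and 0.16 without, and the interaction log2 1.73 (SE 0.23, adjusted p = 0.0163). sqlea (log2 1.71, SE 0.24, adjusted p = 0.0163), hmgcra (log2 1.35, SE 0.21, adjusted p = 0.0269) and msmo1 (log2 1.18, SE 0.21, adjusted p = 0.0421) passed too. Among the muscle genes, ACTA1 (ENSDARG00000055618) had an interaction of log2 1.61 (SE 0.19, adjusted p = 0.00777). Its values under DEX are highest at ZT3, where 29 of the 31 muscle genes peaked. The cryptochrome cry3b was among the 11, with 0.77 with DEX and 1.69 without and an interaction of log2 -0.90 (SE 0.16, adjusted p = 0.0421). Leaving out single DEX libraries gave 16 (without WT at ZT3) to 281 (without rx3 strong at ZT21) such genes, with 18 without WT at ZT9, 34 without rx3 strong at ZT9, 118 without rx3 strong at ZT15 and 181 without rx3 strong at ZT3.

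**Figure D5:**
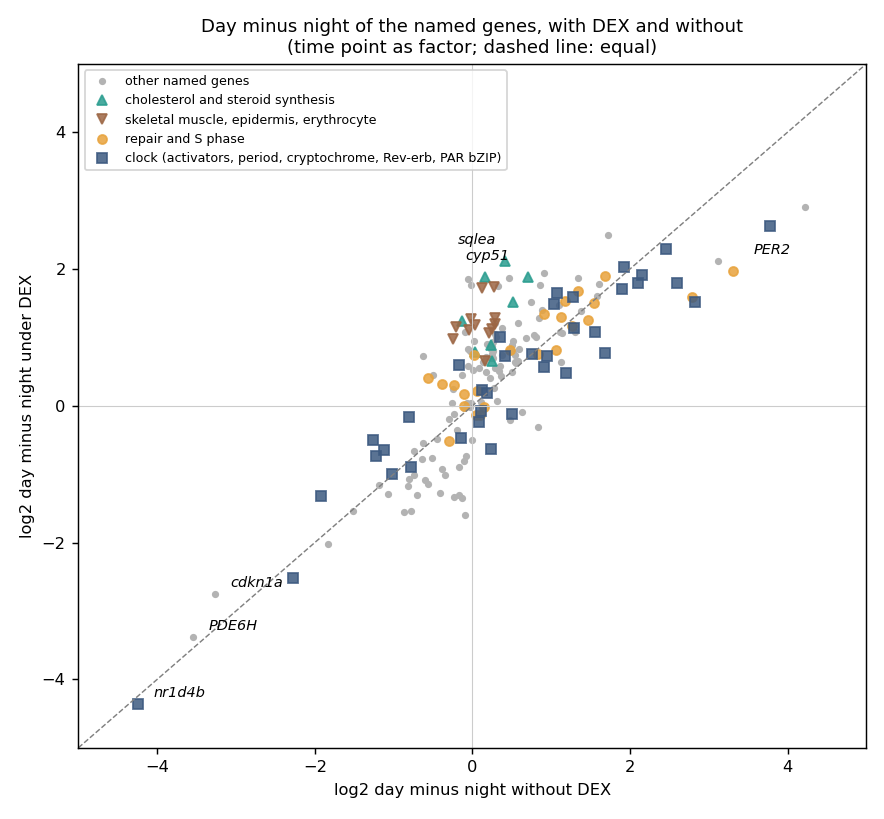
Log2 day minus night with DEX (vertical) against without DEX (horizontal) for the named genes tested in both sets, 1 point per gene, with the dashed line marking equal values. nr1d4b lies at -4.35 with DEX and -4.25 without, near the line, and cyp51 at 1.88 with DEX and 0.16 without, above it. Eye genes, PDE6H among them, passed the filter on low counts through WT, so their points rest on WT.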

How the data were processed

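RNA-Seq of pooled whole larvae was measured in 20 libraries, of which the 8 DEX libraries and, for the side-by-side values, the 8 untreated rx3 strong and WT libraries were used. Per the study's methods, the authors aligned reads with STAR to Zv9 and deposited raw counts of uniquely mapped reads per Ensembl gene from HTSeq. The authors also deposited log2 values (variance stabilizing transformation of DESeq2), used only in the limma alternative, where the header names stand 1 cell left of their values. Copies of a gene can lose reads under unique mapping, and antisense partners were not told apart.

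Counts were analysed in R 4.3.3 with edgeR 4.0.16 (TMM scaling, default expression filter, quasi-likelihood tests, Benjamini-Hochberg adjustment at 0.05). The direct fit held genotype and period (5 residual degrees of freedom), and the time-point fit genotype and time point (3). CPM are counts relative to the TMM-scaled library size. Whether day minus night differed between genotypes, or between DEX and untreated larvae, was tested as an interaction. DESeq2 1.42.0, limma 3.58.1, other scalings and filters, single genotypes and leaving out each library were alternatives. Fits were also run on simulated counts with a single dispersion, no constant gap between genotypes and no difference between time points of a period. These counts lack the structure of the real libraries, so they cannot show how the fits perform on them.

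The members and gene lists were chosen with earlier results of these data known. Named genes were, by a fixed rule, the 12 largest called differences per direction without overlap and at least 5 CPM, every tested clock, repair and glucocorticoid gene, up to 4 called members of each other list, and the 6 smallest adjusted p-values of each interaction and of the 4 time points. The rule was also applied to the calls of the time-point contrast, after the count of the direct test was seen. Of 32512 identifiers, 20250 took a name from the reference table and 1911 from a supplement of the study.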

Additional observations from a re-analysis of the deposited data

Results flagged for a closer look

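In one fit of DEX and untreated libraries with time point as a factor, 55 genes had a day minus night difference that differed between DEX and untreated larvae. The genes with the smallest adjusted p-values were ACTA1 (ENSDARG00000055618), a muscle actin, with a difference of 1.61 on the log2 scale (DEX minus untreated), FABP1 (ENSDARG00000059227), a fatty acid binding protein gene, with 1.44, and mybphb, a myosin binding protein gene, with 1.15. MYOZ2 (ENSDARG00000012311), of the muscle Z-disc, had 0.923, CABZ01066502.1 had 1.36, and cyp51, of cholesterol synthesis, had 1.73. The muscle markers were highest in both ZT3 libraries under DEX, and their part in these values was not tested. DEX and library kit cannot be told apart.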

How the results depend on the processing

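Counts of called genes depended on the fit. Day against night gave 4 genes in the direct test, 73 with no filter on low counts, 493 with DESeq2, 850 with time point as a factor, 2 without the ZT3 libraries, 0 in WT alone, 0 in rx3 strong alone and 0 to 9 on leaving out single libraries. DESeq2 gave 1 gene whose day minus night difference differed between the genotypes. For any time point DESeq2 gave 5022, and leaving out single libraries gave 522 to 2941. The time-point contrast gave 850 genes, 1636 with DESeq2 and 205 to 785 without single libraries. ZT3 against ZT9 gave 2987 genes and 18 to 3233 without single libraries. ZT15 against ZT21 gave 290, with 704 unfiltered, 889 with DESeq2 and 109 to 377 without single libraries. Without DEX, the 365 calls became 554 unfiltered and 749 with DESeq2. The 55 genes whose day minus night difference differed between the DEX and the untreated libraries became 178 unfiltered, 331 with DESeq2 and 16 to 281 without single libraries. On leaving out single libraries, 28 of 193 named genes had log2 differences of both signs in the direct test, and 0 of these were called in any of those fits. Among them were NR1D1 (-1.91 to 0.45), BMAL1 (-0.15 to 0.91), ciarta (-0.74 to 1.21), nos2a (-0.55 to 4.23) and PER1, with -0.06 to 2.22 for ENSDARG00000012499 and -2.13 to 0.17 for ENSDARG00000056885. No paired analysis was possible because each genotype has 1 library per time point and the replicate numbers name time points.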

Other observations

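nos2a, an inducible nitric oxide synthase gene chosen after its values were seen, had 1.13, 114, 2.95 and 0.346 CPM in rx3 strong and 0.292, 0.845, 1.51 and 0.292 CPM in WT at ZT3, ZT9, ZT15 and ZT21, so that rx3 strong at ZT9 stood apart from the other 7 libraries. irg1l, likewise chosen after its values were seen, had 169, 1633, 422 and 42.9 CPM in rx3 strong and 37.2, 343, 775 and 196 CPM in WT at the same time points.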
